A study of Mus musculus with 12 samples.

Results

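Kinesins are motor proteins that walk along microtubules or take them apart. The set described here holds the genes of the deposited count table whose symbol is Kif or Kifc followed by a number, with or without a letter, and it has 40 genes of the 30154 in the table. By textbook role, 12 of them act mainly in cell division, 15 carry cargo, and the other 13 have mixed or less settled roles. After a filter on low counts 37 members were tested, among them all 12 mitotic and all 15 transport motors. The 3 not tested were Kif2b and Kif12, which were at 0 in every library, and Kif27. The measurement is bulk RNA sequencing of muscle stem cells, sorted by flow cytometry from 3 hindlimb muscles (quadriceps, gastrocnemius, tibialis anterior) of C57BL/6J mice at 2-3 months of age. Wild-type (WT) mice and mice labelled as knockout for Sestrin1 and Sestrin2 (KO), whose products are stress-induced proteins, were sampled before injury, called day 0 here, and 7 and 21 days after it. Each of the 6 groups has 2 libraries. The labels give no kind of injury, no sex and no batch, and do not say whether the 2 libraries of a group came from separate mice, so the p-values below measure the spread between libraries, which may be technical.

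A dividing cell builds a spindle of microtubules. Kinesins push the poles apart, move chromosomes to the middle, correct faulty attachments and then gather at the midzone the machinery that separates the daughter cells. Most of these motors are made late in the cell cycle and destroyed as division ends. Transport kinesins work in cells whether or not they divide, carrying vesicles, mitochondria, endosomes and the parts of cilia, and several are best known from the axons of neurons. Muscle stem cells rest in uninjured muscle, enter the cell cycle after injury, and return to rest as the muscle is repaired.

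Promoters of late cell cycle genes often carry the cell cycle genes homology region (CHR), bound by the DREAM and MYB-MuvB complexes, and CCAAT boxes, bound by NF-Y. RefSeq promoters of build GRCm38.p6, from 250 bases before to 50 bases after each annotated start, were found for 11 of the 12 mitotic kinesins and, as 12 promoters of 10 genes, for part of the transport kinesins. They were searched on both strands for TTTGAA or TTCGAA, the CHR core, and for CCAAT. A CHR core was found in 10 of 11 mitotic promoters (90.9%), in 1 of 12 transport promoters (8.33%) and in 19.2% of all 32851 promoters. A CCAAT box was found in 63.6%, 33.3% and 37.4% of these sets, and both motifs in 63.6% of the mitotic, none of the transport and 7.52% of all promoters. No CHR match overlapped a CCAAT match in a kinesin promoter.

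In the mitotic promoters most CHR cores lay near the start. Within 25 bases of it, a window chosen after the positions were seen, 8 of 11 mitotic promoters held a CHR core. So did 1 of 13 promoters of the other kinesins and 2.64% of all promoters. None of the 12 transport promoters did, but only 1 of them held a CHR core at any position, so position cannot be compared there. Those 8 mitotic promoters are printed first, from 70 bases before to 30 bases after the start. Kif18a, the mitotic kinesin without a CHR match, and the transport motor Kif1b follow for contrast. The Kif1b promoter printed has CCAAT boxes 153 and 122 bases before the start, outside the printed stretch. Transport promoters not printed had matches inside such a stretch. These were a CHR core of Kif1a 44 bases before the start and CCAAT boxes of Kif3a and Kif3b 18 and 69 bases before it. Capitals mark CHR cores and CCAAT boxes (ATTGG on the other strand).
Kif11, chr19:37376312-37376411, plus strand: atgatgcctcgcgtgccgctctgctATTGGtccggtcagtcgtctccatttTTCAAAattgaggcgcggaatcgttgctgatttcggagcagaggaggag
Kif15, chr9:122951011-122951110, plus strand: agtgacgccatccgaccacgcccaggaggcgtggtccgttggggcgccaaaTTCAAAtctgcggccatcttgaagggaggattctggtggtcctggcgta
Kif22, chr7:127042391-127042490, minus strand: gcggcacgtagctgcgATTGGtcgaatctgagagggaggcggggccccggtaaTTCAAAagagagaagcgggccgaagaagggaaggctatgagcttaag
Kif4, chrX:100625995-100626094, plus strand: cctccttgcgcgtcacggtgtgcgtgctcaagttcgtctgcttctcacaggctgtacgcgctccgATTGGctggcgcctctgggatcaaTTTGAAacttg
Kif18b, chr11:102925095-102925194, minus strand: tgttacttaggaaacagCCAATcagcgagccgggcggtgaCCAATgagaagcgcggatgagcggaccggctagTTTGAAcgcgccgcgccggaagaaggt
Kif23, chr9:61946770-61946869, minus strand: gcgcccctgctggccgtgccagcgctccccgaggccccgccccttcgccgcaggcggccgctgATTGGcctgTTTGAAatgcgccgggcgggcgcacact
Kif20b, chr19:34922288-34922387, plus strand: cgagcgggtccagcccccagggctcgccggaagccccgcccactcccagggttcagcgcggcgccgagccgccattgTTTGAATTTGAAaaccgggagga
Kifc1, chr17:33890604-33890703, minus strand: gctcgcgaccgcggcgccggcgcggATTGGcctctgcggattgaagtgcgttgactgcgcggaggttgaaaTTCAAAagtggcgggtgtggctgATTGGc
Kif18a, chr2:109280668-109280767, plus strand: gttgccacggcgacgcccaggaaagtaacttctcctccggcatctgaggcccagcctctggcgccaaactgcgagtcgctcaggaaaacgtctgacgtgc
Kif1b, chr4:149307669-149307768, minus strand: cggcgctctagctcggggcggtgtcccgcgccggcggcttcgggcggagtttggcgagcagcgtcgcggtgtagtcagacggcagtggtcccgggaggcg

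In Kif11, Kif15 and Kif22 the CHR core began 19, 19 and 17 bases before the start. In Kif18b, Kif23 and Kifc1 it began at base 4, 3 and 2 of the transcript, and in Kif20b 2 copies stood end to end from base 8. The CHR matches of Kif14 and Kif2c lay farther off, 228 and 103 bases before the start, and for both genes the RefSeq start lies inside the gene as GENCODE draws it. The median GC content was 60.7% in mitotic, 68.2% in transport and 52.7% in all promoters, so the sets also differ in base composition. A match of letters is not a measured binding site.

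**Figure D1:**
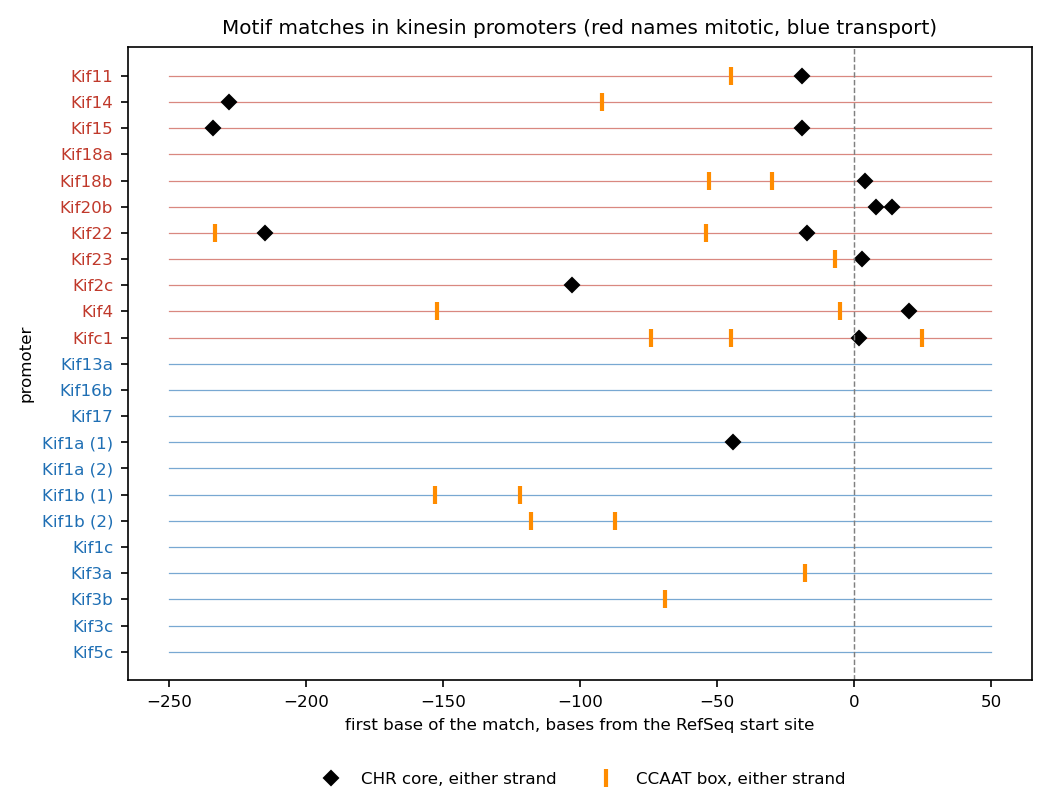
Position of CHR cores (black diamonds) and CCAAT boxes (orange ticks) in 11 mitotic and 12 transport kinesin promoters, in bases from the RefSeq start (dashed line). In 8 of the 11 mitotic promoters a CHR core lies within 25 bases of the start.

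The libraries held between 28396780 and 38950514 estimated counts, with 17292 to 18142 genes above 0. As a check of the labels, Sesn2 stood at 75.1 and 84.3 CPM (counts relative to the scaled library size) in wild type against 5.47 and 7.03 in knockout at day 0, and at 44.9 and 47.4 against 2.36 and 1.92 at day 7. The groups did not overlap, but neither difference passed in edgeR (adjusted p = 0.058 and 0.17). Sesn1 kept much of its level in knockout at day 0, with 70.3 and 68.6 CPM in wild type against 46.0 and 45.8 (edgeR adjusted p = 0.144). At day 7 it stood at 84.0 and 67.9 in wild type against 28.4 and 22.4 in knockout, a difference that passed (adjusted p = 0.0301). The labels do not say which exons were removed. At day 21 Sesn2 went against 2 labels, with 8.92 and 82.1 CPM under the wild-type label and 9.86 and 108 under the knockout label. Day 21 groups are therefore given by label, and comparisons with day 21 average all 4 of its libraries. The muscle stem cell markers Pax7, Myf5, Vcam1, Itga7, Cdh15 and Des were detected in all 12 libraries. Dcn, a gene of fibro-adipogenic cells, was also high, between 2537 and 9825 CPM, while the T cell gene Cd3e was at or near 0. The 4 leukocyte markers, Cd3e among them, summed to between 2.28 and 22.9 CPM. At day 0 the Schwann cell markers summed to between 872 and 1192 CPM and the red blood cell markers to between 96.4 and 516.

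Expressed per transcript length, in TPM (length-scaled transcript abundance), the summed level of the mitotic kinesins stood apart at day 7, while that of the transport kinesins differed less between days. The summed TPM of the 12 mitotic motors was 16.0 and 16.8 in wild type against 8.97 and 8.67 in knockout at day 0. It was 112 and 110 in wild type against 119 and 113 in knockout at day 7, and at day 21 between 10.4 and 26.9. The 4 day 7 libraries thus stood 6.75-fold above day 0 in wild type and 13.2-fold in knockout, by group means. The summed TPM of the 15 transport motors was 236 and 221 in wild type against 277 and 276 in knockout at day 0. It lay between 211 and 231 at day 7 and between 240 and 310 at day 21. Its group mean changed by 1.01-fold from day 0 to day 7 in wild type and by 0.794-fold in knockout. Mitotic motors made up 5.65% and 6.20% of the summed kinesin TPM of wild type at day 0, 2.85% and 2.74% in knockout, and between 30.2% and 33.8% at day 7. In bulk RNA, more dividing cells and more RNA per dividing cell cannot be told apart.

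**Figure D2:**
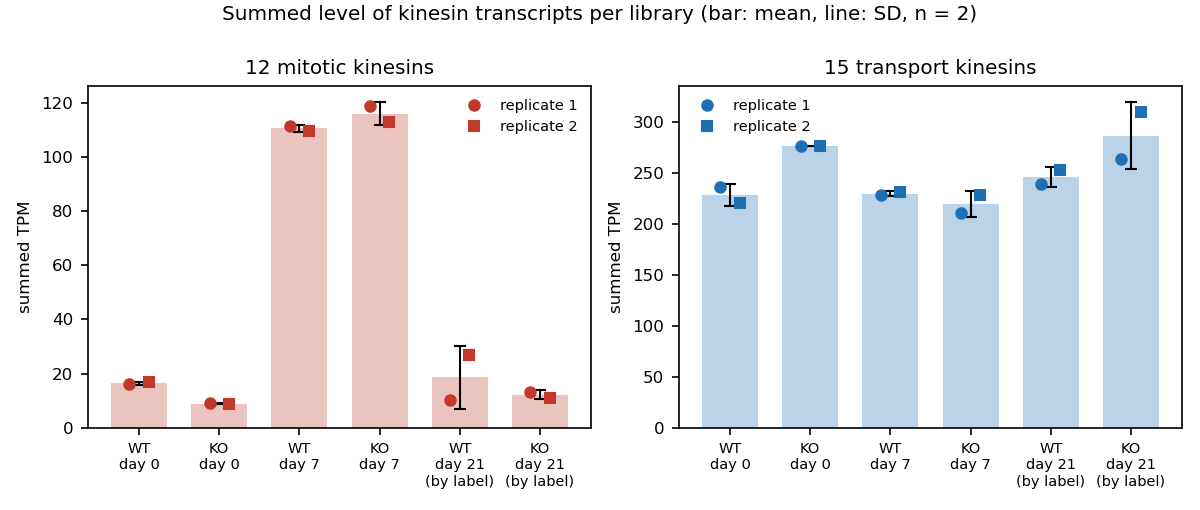
Summed TPM of the 12 mitotic (left) and 15 transport kinesins (right) in each library, with points for libraries, bars for group means and lines for the SD (n = 2). The mitotic sum rises to between 110 and 119 at day 7 and falls back by day 21, with 1 library labelled wild type at 26.9, while the transport sum stays between 211 and 310.

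Averaged over all days, the order of the levels was led by cargo carriers. Kif5b, the widely expressed heavy chain of conventional kinesin, was highest at a mean of 121 TPM over the 12 libraries, with a range of 105 to 132. Kif3a, a motor subunit of heterotrimeric kinesin, followed at 44.6, Kif1b, a carrier of mitochondria and vesicles, at 30.3 and Kif1a, a carrier of synaptic vesicle precursors, at 15.6. Kif3a and Kif1b overlapped in range, at 40.1 to 51.1 and 14.6 to 60.6, as did Kif1b and Kif1a. The mitotic motor with the highest mean was Kif22 at 10.9 TPM, over a range from 0.167 to 30.2. The order differed by day. At day 7 the group means of Kif22, 29.4 in wild type and 28.9 in knockout, were above those of Kif1b (24.4 and 25.7) and Kif1a (3.65 and 3.94). At day 0 Kif22 was not the highest mitotic motor by group mean. Kif2c stood at 3.08 against 2.75 in wild type, and Kif18a at 2.51 against 0.282 in knockout.

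**Figure D3:**
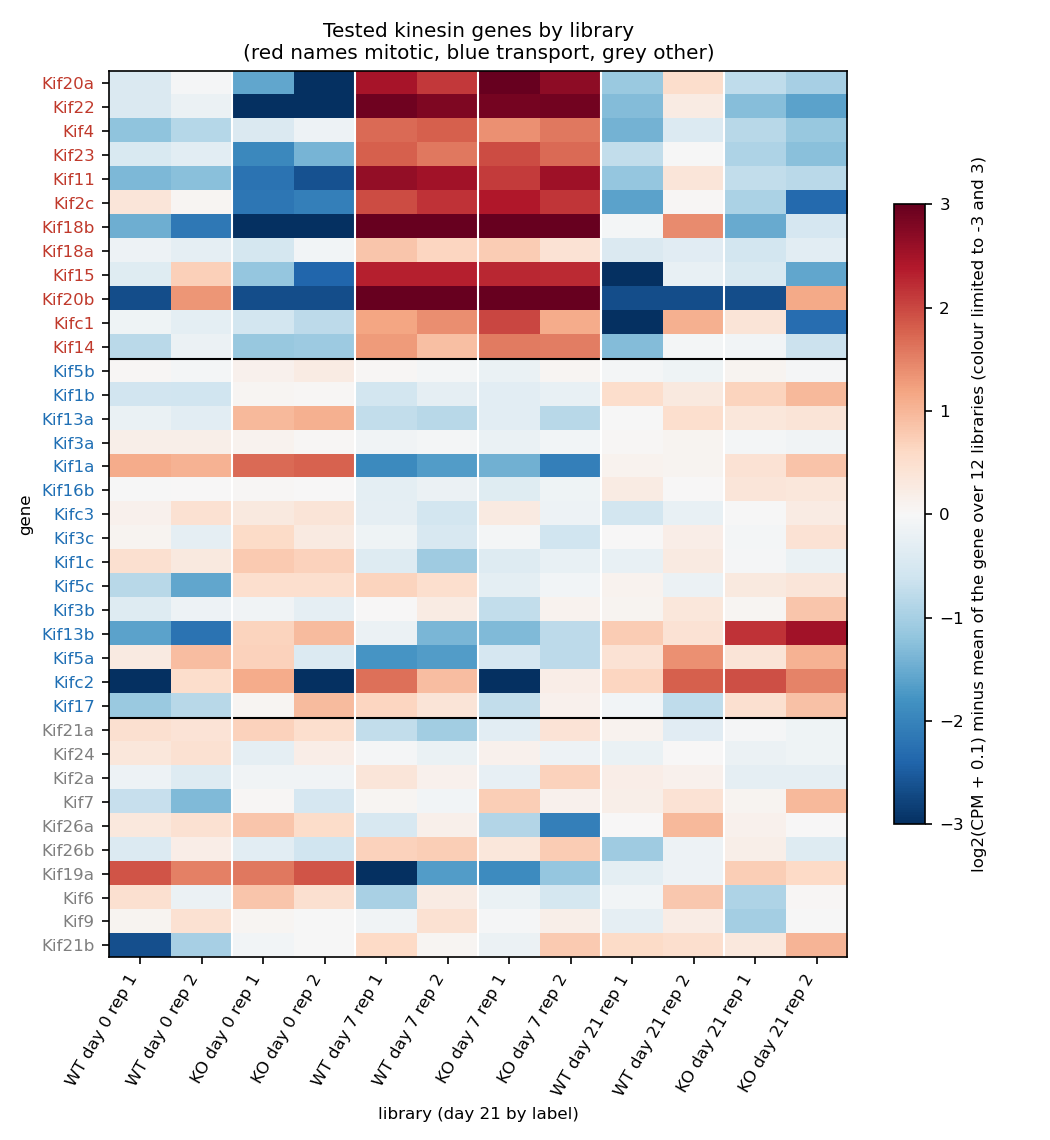
Log2(CPM + 0.1) of the 37 tested kinesins in each of the 12 libraries, after subtracting the mean of each gene, with mitotic motors above, transport motors in the middle and the others below. The 4 day 7 libraries are red for the mitotic motors; Kif1a and Kif19a are blue there.

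From day 0 to day 7 in wild type, 9 of the 12 mitotic kinesins rose and none fell, by the edgeR quasi-likelihood test with a Benjamini-Hochberg adjusted p under 0.05. Of all 15890 genes 47% changed by this rule, 25.8% upwards and 21.2% downwards. In knockout 11 of 12 rose, where 46.9% of all genes changed, 24.7% upwards and 22.2% downwards. The median log2 fold change of the 12 was 2.33 in wild type and 4.29 in knockout, against 0.06 and 0.03 over all genes. Kifc1, a minus-end motor that focuses spindle poles, did not pass in either genotype; its reads can be shared with near copies such as Kifc5b.

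The motors that push spindle poles apart were among the rising genes. Kif11, which slides antiparallel microtubules and keeps the spindle bipolar, stood at 2.00 and 2.14 CPM in wild type against 1.03 and 0.773 in knockout at day 0. The day 7 values were 32.7 and 30.2 CPM in wild type against 22.5 and 30.8 in knockout. No day 7 library came near a day 0 library. The log2 fold change was 3.92 ± 0.42 (SE; edgeR adjusted p = 5.45e-05) in wild type and 4.86 ± 0.46 (adjusted p = 2.02e-05) in knockout. Kif15, which can stand in for Kif11, went from 1.50 and 3.27 to 10.3 and 10.3 CPM in wild type, a log2 fold change of 2.11 that did not pass (adjusted p = 0.0814), and from 0.821 and 0.295 to 9.85 and 9.65 in knockout, where it rose by 4.09 (adjusted p = 0.0093). Without replicate 2 of knockout day 0 the adjusted p of that rise was 0.0715.

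Motors that act on chromosomes and microtubule ends rose as well. Kif22, a chromokinesin that pushes chromosome arms towards the spindle equator, stood at 3.94 and 4.69 CPM in wild type against 0.578 and 0.258 in knockout at day 0, and between 37.8 and 40.6 in all 4 libraries of day 7. Its log2 fold change was 3.18 ± 0.41 (adjusted p = 0.000209) in wild type and 6.52 ± 0.53 (adjusted p = 9.93e-06) in knockout. The groups of the 2 genotypes were apart at day 0 and overlapped at day 7. Kif18b, which trims astral microtubules, went from 0.656 and 0.369 to 19.1 and 19.9 CPM in wild type, a log2 fold change of 5.26 (adjusted p = 0.000111). In knockout it had no count at day 0 and 17.9 and 21.9 CPM at day 7, at least 197-fold higher against a floor of 3 counts per library. Kif4, a chromokinesin that also limits midzone length, rose by 2.80 ± 0.30 (adjusted p = 4.23e-05) in wild type and by 1.78 ± 0.28 (adjusted p = 0.000519) in knockout. Kif2c, a depolymerase that corrects attachments, rose by 1.87 and 4.50, though in wild type not without replicate 2 of day 0 (adjusted p = 0.082). Kif18a, which damps chromosome movements and had no CHR match, rose by 0.97 and 0.91, with 4.74 to 6.44 CPM at day 0 and 9.29 to 12.3 at day 7; in knockout its adjusted p was 0.0521 without replicate 1 of day 0 and 0.0755 with the gene length offset.

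Of the cytokinesis motors, Kif23, Kif20a and Kif14 rose in both genotypes and Kif20b in knockout. Kif23, the motor of centralspindlin at the midzone, stood at 6.25 and 6.83 CPM in wild type against 2.16 and 3.20 in knockout at day 0, and between 26.1 and 33.8 at day 7. It rose by 2.10 ± 0.26 (adjusted p = 0.000106) in wild type and 3.54 ± 0.28 (adjusted p = 5.35e-06) in knockout. Kif20a, which brings the Aurora B complex to the midzone, stood at 4.47 and 5.91 CPM in wild type against 2.01 and 0 in knockout at day 0, and at 34.2, 27.1, 50.7 and 39.5 at day 7. It rose by 2.56 ± 0.82 (adjusted p = 0.0328) in wild type and by 5.41 ± 0.97 (adjusted p = 0.00228) in knockout. The knockout fold change was 13.59 without replicate 1 of knockout day 0, which leaves only the library at 0 and a fitted value that depends on the prior count, and 4.46 without replicate 2. The wild-type rise of Kif20a did not pass with DESeq2 (adjusted p = 0.118), with no filter on low counts (0.0833), with the gene length offset (0.0943) or with the replicate block (0.0508). It also did not pass without either day 0 library of wild type (adjusted p = 0.15 and 0.11), without either day 7 library of wild type (0.106 and 0.0698) or without replicate 1 of knockout day 7 (0.0531). Its exons overlap those of Cdc23 on the opposite strand by 1271 bases, and reads of the 2 genes cannot be told apart by strand in this kit. Kif14, which works with citron kinase, rose by 1.64 and 2.83; in wild type its adjusted p was 0.115 without replicate 1 of day 0 and 0.0818 without replicate 1 of day 7. Kif20b, a late abscission motor, stood at 0 and 1.48 CPM at day 0 and 6.72 and 5.20 at day 7 in wild type and did not pass there (adjusted p = 0.194). It passed in knockout, where it had no count at day 0 and 5.54 and 8.77 CPM at day 7, at least 71.0-fold higher; leaving out either knockout library of day 0 (adjusted p = 0.105 and 0.0974), either knockout library of day 7 (0.071 and 0.0822) or either wild-type library of day 7 (0.0577 and 0.0586) ended that call, as did using no filter on low counts (0.108) or the gene length offset (0.106).

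**Figure D4:**
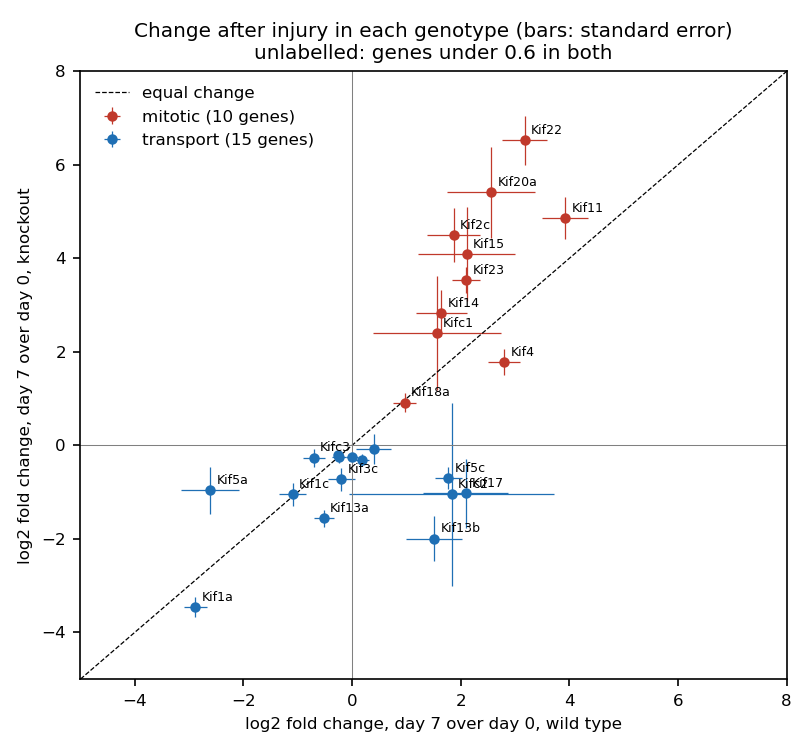
Log2 fold change from day 0 to day 7 in wild type (x axis) and knockout (y axis) for 10 mitotic (red) and 15 transport kinesins (blue), with standard errors; Kif18b and Kif20b, at 0 in both knockout libraries of day 0, are left out. The 10 mitotic motors lie in the upper right, all but Kif4 and Kif18a above the line of equal change, and the 15 transport motors lie below 0 on the y axis.

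Other cell types were measured beside these changes. From day 0 to day 7 the summed level of the 4 leukocyte markers went from between 2.28 and 4.04 CPM to between 7.27 and 22.9, and 2 of the 3 tested rose in wild type and 3 of 3 in knockout, with Cd3e at or near 0. The muscle stem cell markers moved the same way, 3 of 6 rising in wild type and 5 of 6 in knockout. Fibro-adipogenic markers went from summed levels between 5715 and 7505 CPM to between 2609 and 3508, with 1 of 3 falling in each genotype. Red blood cell markers went from 516 and 504 to 105 and 145 CPM in wild type, where 3 of 3 fell, and from 110 and 96.4 to 45.0 and 105 in knockout, where 1 of 3 fell. Of 3 endothelial markers none passed in wild type and 1 fell in knockout. The part of these changes in the rise of the mitotic kinesins was not tested.

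At day 0, before injury, 4 of the 12 mitotic kinesins were lower in knockout than in wild type, Kif22, Kif23, Kif2c and Kif18b. None was higher, and the fitted change was negative for 11 of 12. Of all genes 27.4% differed between the genotypes at day 0, with 12.6% of all genes lower in knockout, and the median log2 fold change was -1.68 for the mitotic kinesins against 0.00 over all genes. The values for Kif22 and Kif23 are given above, and the log2 fold changes were -3.32 ± 0.53 (edgeR adjusted p = 0.00249) and -1.29 ± 0.27 (adjusted p = 0.00697). Kif2c stood at 6.25 and 5.04 CPM in wild type against 1.00 and 1.10 in knockout, a log2 fold change of -2.42 ± 0.56 (adjusted p = 0.0123). Kif18b, at 0 in both knockout libraries, was at least 5.09-fold lower; it did not pass with limma on log2 TPM plus 1, with its filter (adjusted p = 0.422) or without (0.52), or on the corrected log2 values (0.0539). Kif11 was -1.18 ± 0.46 (edgeR adjusted p = 0.0846) and Kif20a -2.30 ± 0.94 (adjusted p = 0.107), and neither passed.

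Kif4 went the other way, at 4.03 and 5.17 CPM in wild type against 6.99 and 8.58 in knockout, with a log2 fold change of 0.75 ± 0.29 (edgeR adjusted p = 0.0773) that did not pass. Its exons overlap those of Pdzd11 on the opposite strand by 832 bases. Kif18a did not separate the genotypes, with 6.12 and 5.70 CPM against 4.74 and 6.44. The count of 4 depended on single libraries. It was 2 without either knockout library of day 0 or without replicate 1 of wild type, and 7, of which 1 was higher, without either day 21 library labelled wild type. Kif2c then had adjusted p values of 0.078, 0.0777 and 0.0617, Kif18b 0.0685, 0.0671 and 0.0636, and Kif23 0.0602 without replicate 1 of knockout.

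In the same libraries 5 of 15 transport kinesins were higher in knockout and none was lower, where 14.8% of all genes were higher. Kif13a, a carrier of recycling endosomes, stood at 45.3 and 41.9 CPM in wild type against 103 and 109 in knockout, a log2 fold change of 1.28 ± 0.19 (edgeR adjusted p = 0.00137). Kif5c, a conventional kinesin heavy chain best known from neurons, stood at 3.37 and 2.00 CPM against 8.63 and 8.62, a change of 1.69 ± 0.25 (adjusted p = 0.00154). With limma on log2 TPM plus 1 its change was 0.91, which passed with the filter (adjusted p = 0.0461) and not without it (0.0769). Kif13b, related to Kif13a, stood at 0.375 and 0.211 CPM against 2.19 and 2.69, a change of 3.05 ± 0.52 (adjusted p = 0.00266) that did not pass with limma on log2 TPM plus 1 (adjusted p = 0.0724). For each of these 3 the knockout libraries lay well above those of wild type.

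Kif1b and Kif1a also passed, by smaller steps. Kif1b stood at 64.0 and 63.0 CPM in wild type against 97.9 and 96.8 in knockout (log2 fold change 0.62 ± 0.13, edgeR adjusted p = 0.00749), and Kif1a at 38.0 and 36.1 against 57.4 and 60.7 (0.67 ± 0.19, adjusted p = 0.0271). Without a day 0 library of wild type the adjusted p of Kif1b was 0.0528 and 0.0558, and that of Kif1a lay between 0.0834 and 0.129 without any 1 of the 4 day 0 libraries. The transport count was then 3, without either wild-type library. Kif1a also did not pass, and its difference was smaller, with the gene length offset (0.55, adjusted p = 0.138), with limma on log2 TPM plus 1 (0.32, adjusted p = 0.44) or plus 0.1 (0.33, adjusted p = 0.497) and on the corrected log2 values (0.21, adjusted p = 0.664). Kif5b, the most abundant kinesin, stood at 268 and 253 CPM against 286 and 312 (0.20 ± 0.10, adjusted p = 0.18). Kif17, a motor of dendrites and cilia, was at 0.0937 and 0.132 against 0.334 and 0.700 CPM and did not pass (adjusted p = 0.0669). The remaining transport motors Kif1c, Kif3a, Kif3b, Kif3c, Kif5a, Kif16b, Kifc2 and Kifc3 did not pass.

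Markers of cell identity differed between the genotypes at day 0 as well. Of 6 muscle stem cell markers 4 were lower in knockout, with Pax7 at 24.5 and 27.2 CPM in wild type against 10.2 and 13.9 in knockout, although the summed level of the 6 overlapped (1464 and 1526 CPM against 1411 and 1476). The 3 red blood cell markers were lower in knockout, summing to 516 and 504 against 110 and 96.4 CPM. Of the 3 Schwann cell markers 1 was higher, with sums of 872 and 924 against 1162 and 1192 CPM, and the 2 tested neuron markers did not pass. Of 3 endothelial markers 1 was higher, with sums of 119 and 95.1 against 149 and 153 CPM. None of the 3 fibro-adipogenic markers passed, although their sums did not overlap (7505 and 7346 against 5715 and 5717 CPM). The part of these differences in the kinesin values was not tested.

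**Figure D5:**
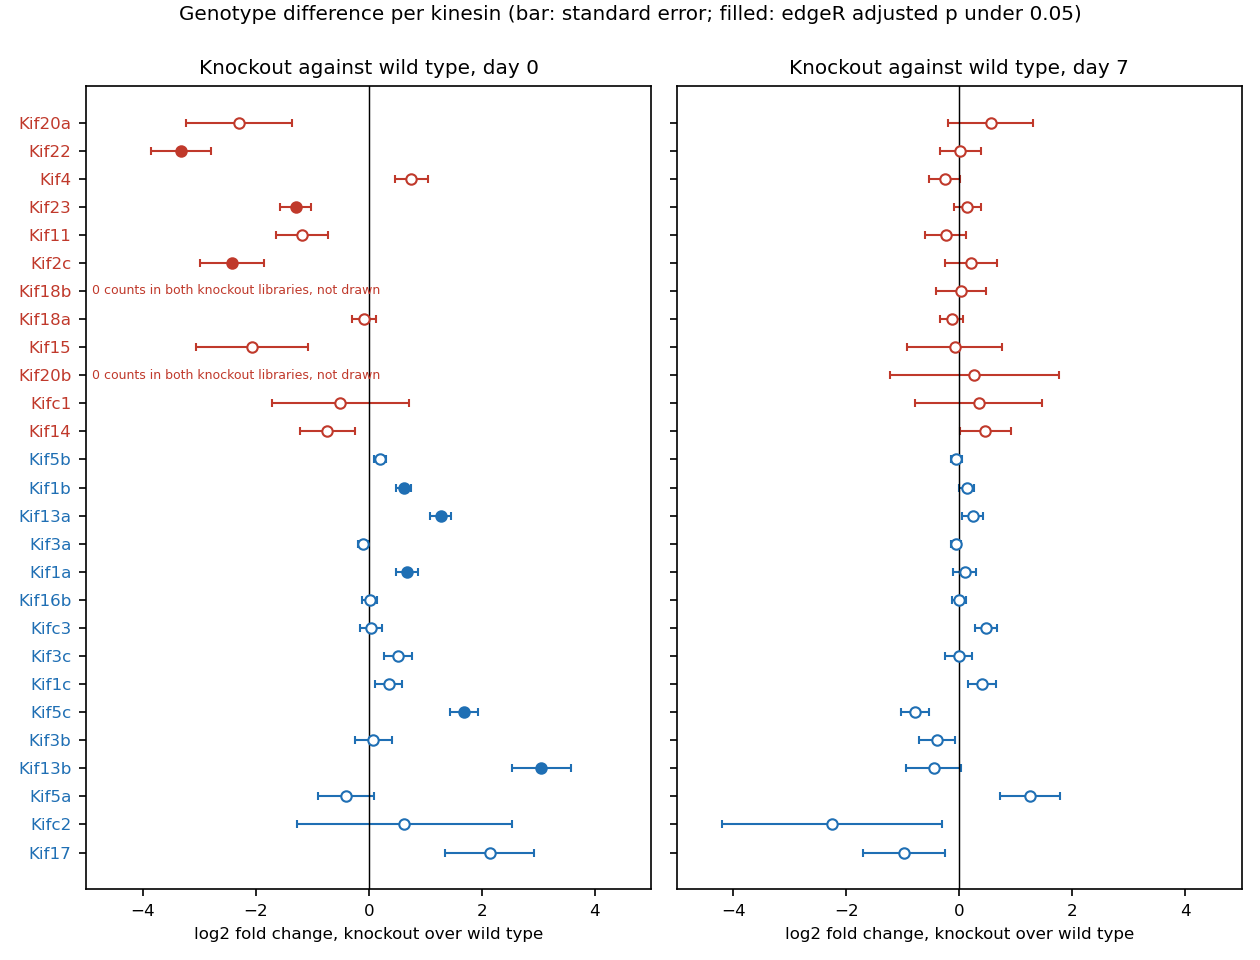
Log2 fold change of knockout over wild type for 27 mitotic (red names) and transport (blue names) kinesins at day 0 (left) and day 7 (right), with standard errors; filled points passed the edgeR test. At day 0 the filled points of Kif22, Kif23 and Kif2c lie to the left and those of Kif13b, Kif5c, Kif13a, Kif1a and Kif1b to the right, and no point is filled at day 7. Kif18b, which also passed, and Kif20b have no point at day 0 because both knockout libraries were at 0.

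At day 7 no kinesin passed between the genotypes, mitotic, transport or other, by edgeR with adjustment over all genes, where 1.76% of all genes did, 1.08% higher and 0.68% lower in knockout. The median log2 fold change was 0.08 for the mitotic and -0.01 for the transport motors. At an unadjusted p under 0.05 edgeR gave 5 of the 37, which were Kif21a, Kif26a, Kif5a, Kif5c and Kifc3, beside 14.3% of all genes. DESeq2 gave 1, Kif21a, at an adjusted p under 0.05, beside 4.95% of all genes. The libraries of the 2 genotypes overlapped for 8 of the 12 mitotic motors, Kif11, Kif22, Kif23, Kif2c and Kif18b among them. They did not for Kif20a and Kif14, higher in both knockout libraries, or for Kif4 and Kif15, lower in both, at adjusted p values from 0.731 to 0.985. Over all genes the day 7 libraries of the genotypes did not overlap for 47.4%. Kif5c was lower in both knockout libraries, at 4.91 and 5.72 CPM against 9.71 and 8.61, a difference of -0.79 ± 0.24 that did not pass (adjusted p = 0.157); in TPM the genotypes overlapped, with 2.36 and 5.73 in knockout against 4.78 and 4.86.

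Whether the change from day 0 to day 7 differed between the genotypes was tested as an interaction. It shares its day 0 libraries with the genotype comparison at day 0 and is not independent of it. It passed for 4 of 12 mitotic kinesins, all with a larger rise in knockout, and for 3 of 15 transport kinesins, all with a lower change in knockout, where 13.5% of all genes passed, 6.08% with the higher and 7.39% with the lower change in knockout. Kif22 rose by 3.34 ± 0.66 more in knockout on the log2 scale (edgeR adjusted p = 0.0136), Kif23 by 1.44 ± 0.36 more (adjusted p = 0.0298) and Kif2c by 2.62 ± 0.73 more (adjusted p = 0.0433). Kif18b was the fourth, with its size unbounded by the absence of counts in knockout at day 0. Kif11 (0.94 ± 0.59, adjusted p = 0.323) and Kif20a (2.86 ± 1.21, adjusted p = 0.162) did not pass, and Kif4 had a fitted difference of the other sign (-1.02 ± 0.40, adjusted p = 0.118). Of 6 muscle stem cell markers 3 passed with the larger rise in knockout, and 1 of 3 Schwann cell markers passed with the higher and 1 of 3 endothelial markers with the lower change in knockout; their part was not tested. With limma on log2 TPM plus 1, 0 of the mitotic and 1 of the transport kinesins had an adjusted p under 0.05. The mitotic count fell to 1 or 2 without any 1 of the 8 libraries of day 0 and day 7; Kif22 failed only without replicate 2 of knockout day 0 (adjusted p = 0.0656).

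Of the transport kinesins, Kif13b had an interaction of -3.51 ± 0.71 (edgeR adjusted p = 0.0136) and Kif13a of -1.04 ± 0.26 (adjusted p = 0.0288). Kif13b rose from day 0 to day 7 in wild type (1.51 ± 0.52, adjusted p = 0.035) and fell in knockout (by 2.0 ± 0.48, adjusted p = 0.00636), with day 7 levels of 1.20, 0.466, 0.476 and 0.747 CPM that overlapped between genotypes. The wild-type rise did not pass without either day 0 library of wild type (adjusted p = 0.055 and 0.209), replicate 1 of its day 7 (0.35), replicate 2 of knockout day 0 (0.0515) or replicate 2 labelled knockout at day 21 (0.0511), and the fall not without replicate 1 of knockout day 7 (0.0515). Without replicate 1 of wild type day 7 the rise was 0.68. It also did not pass in edgeR with the gene length offset (adjusted p = 0.0598) or with the libraries of the comparison alone (0.121). Nor did it pass with limma on log2 TPM plus 1 (0.19, adjusted p = 0.459) or plus 0.1 (0.90, adjusted p = 0.219). The knockout fall did not pass with limma on log2 TPM plus 1 (adjusted p = 0.102) or plus 0.1 (0.0721). Kif13a fell in both genotypes, by 0.52 in wild type and by 1.56 in knockout. Its interaction failed without any of 7 libraries, at adjusted p values up to 0.0911, and that of Kif13b without 3, up to 0.0613. The transport count of 3 was 1 without replicate 2 of knockout day 0, replicate 2 of wild type day 0 or replicate 1 of wild type day 7.

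Kif5c had the interaction with the smallest adjusted p among the kinesins, -2.47 ± 0.35 (edgeR adjusted p = 0.0036). In wild type it rose, to 9.71 and 8.61 CPM at day 7, by 1.77 ± 0.25 (adjusted p = 0.000279). In knockout it fell by 0.70 ± 0.24 in counts (adjusted p = 0.0362), but this direction turned with length scaling: with an offset for gene length the change was 0.96 (adjusted p = 0.099). In TPM it stood at 0.601 and 0.426 in wild type against 1.73 and 1.94 in knockout at day 0, and at 4.78, 4.86, 2.36 and 5.73 at day 7, so that all 4 day 7 libraries lay above all day 0 libraries. The interaction itself kept its sign under the offset, at -2.04, and did not pass (adjusted p = 0.0627). The fall in counts also failed without any 1 of the 4 knockout libraries of day 0 and day 7, at adjusted p values from 0.0655 to 0.157.

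From day 0 to day 7 the called transport kinesins, Kif5c and Kif13b among them, moved in both directions in wild type and downwards in knockout. In wild type 9 of 15 changed, 3 upwards and 6 downwards, and in knockout 6 of 15, all downwards, beside 47% and 46.9% of all genes that changed. Kif1a had the largest fall on the log2 scale among the called transport motors, in CPM from 38.0 and 36.1 to 4.59 and 5.43 in wild type and from 57.4 and 60.7 to 6.47 and 4.16 in knockout, by 2.89 ± 0.21 (edgeR adjusted p = 4.7e-06) and 3.47 ± 0.22 (adjusted p = 1.28e-06) on the log2 scale. Kif5a, the neuronal heavy chain of conventional kinesin, went from 1.87 and 3.03 to 0.383 and 0.414 CPM in wild type, a fall of 2.61 ± 0.54 (adjusted p = 0.00267), and did not pass in knockout. Kif1c, a carrier of dense-core vesicles, fell by 1.09 in wild type and 1.05 in knockout. The wild-type change did not pass with limma on log2 TPM plus 1 (-0.49, adjusted p = 0.0581) or plus 0.1 (-0.67, adjusted p = 0.0557). Markers of Schwann cells fell beside them, 3 of 3 in each genotype, from summed levels between 872 and 1192 CPM to between 127 and 205, as did Syp and Stmn2 in knockout and 1 of these 2 in wild type, with the 3 neuron markers summing to between 20.5 and 24.4 CPM at day 0 and between 5.65 and 9.80 at day 7. Snap25, a defining gene of neurons, was at or near 0 throughout, and the part of nerve cells in these falls was not tested.

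Smaller transport changes depended on single libraries or settings. In wild type, Kif17 rose and Kif3a and Kifc3, a minus-end motor of cell junctions, fell with Kif13a. With the gene length offset Kif17, Kif3a and Kif13a did not pass (adjusted p = 0.255, 0.751 and 0.0887), nor did Kifc3 with limma on log2 TPM plus 1 (adjusted p = 0.119). The count of 9 was 5 without replicate 1 of day 0, 4 without replicate 2 of day 0, and 5 without either day 7 library of wild type. The fall of Kif3a, by 0.25 in counts, was a rise of 0.10 in TPM, which did not pass. Kif3c fell in knockout, by 0.73, but not without replicate 1 of day 0 (adjusted p = 0.169) or replicate 2 of day 7 (0.194). Kif5b did not pass, with a log2 fold change of 0.00 ± 0.10 in wild type and -0.25 ± 0.10 in knockout (adjusted p = 0.0671), and Kif1b did not pass in either genotype.

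Averaged over genotypes, 11 of 12 mitotic kinesins were lower at day 21 than at day 7, all but Kifc1, and 8 of 15 transport kinesins were higher, where 56.8% of all genes changed, 28.4% each way. Markers of other cells changed in the same comparison, with 3 of 3 Schwann cell and 3 of 3 red blood cell markers higher, 2 of 3 fibro-adipogenic markers higher and 1 lower, and 2 of 3 tested leukocyte markers lower; of 6 muscle stem cell markers 1 was higher and 3 were lower. Of 2 tested neuron markers 1 was higher, as was 1 of 3 endothelial markers. Their part in the kinesin changes was not tested. Kif23 fell by 2.50 ± 0.19 (edgeR adjusted p = 2.52e-06), Kif4 by 2.53 ± 0.21 (adjusted p = 4.57e-06) and Kif22 by 3.80 ± 0.31 (adjusted p = 6e-06). At day 21 Kif23 stood at 5.14 and 8.47 CPM under the wild-type label and 4.47 and 3.52 under the knockout label, all below every day 7 library. Kif1a rose by 2.14 ± 0.15 (adjusted p = 1.62e-06), to between 18.5 and 32.0 CPM, still below its day 0 level.

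Kif1b was higher at day 21 than at either earlier time. It stood at 137 and 115 CPM under the wild-type label and 150 and 185 under the knockout label at day 21, against 63.0 to 97.9 at day 0 and 65.0 to 80.7 at day 7. All 4 day 21 libraries lay above all 8 others. The log2 fold change was 0.89 ± 0.09 against day 0 (edgeR adjusted p = 4.72e-05) and 0.96 ± 0.09 against day 7 (adjusted p = 1.28e-05). In TPM it was 35.8 to 60.6 at day 21 and 14.6 to 27.0 before.

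Against day 0, 3 mitotic kinesins were higher at day 21 and 6 transport kinesins changed, 3 each way, where 45.9% of all genes changed, 25% upwards and 20.8% downwards. Kif11 was 1.41 ± 0.31 higher (edgeR adjusted p = 0.00407), at 2.27 and 6.68 CPM under the wild-type label and 3.07 and 2.93 under the knockout label, each above all 4 day 0 libraries; the difference was 0.92 without replicate 2 labelled wild type at day 21. Kif18b and Kif22 were the others; Kif22 did not pass without any of 6 libraries (adjusted p up to 0.121), and both overlapped day 0. The library labelled wild type replicate 2 had the highest level of the 4 for 10 of the 12 mitotic kinesins. Beside Kif1b, Kif13b rose, by 2.22 ± 0.34 (adjusted p = 0.000511), to 6.39 and 8.27 CPM under the knockout label and 2.36 and 1.85 under the wild-type label, and Kif1a fell, by 1.03 ± 0.14 (adjusted p = 0.000208). The transport count of 6 was 3 without replicate 1 of knockout day 0. Beside these changes 3 of 3 Schwann cell markers and 1 of 2 tested neuron markers were lower at day 21 than at day 0, 5 of 6 muscle stem cell markers, 1 of 3 endothelial and 1 of 3 tested leukocyte markers were higher, and of 3 fibro-adipogenic markers 1 was higher and 1 lower; their part was not tested. Between the genotypes by label at day 21 no kinesin passed in edgeR, where 0.0126% of all genes did, 0.00629% in each direction; at an unadjusted p under 0.05 edgeR gave 7 of 37, beside 14.2% of all genes, and DESeq2 gave 1, Kif18b, at an adjusted p under 0.05, beside 2.96%. Without replicate 1 labelled wild type, 4 mitotic kinesins were lower in the libraries labelled knockout, beside 2.47% of all genes.

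The partners of the mitotic motors, 28 genes such as cyclins, Aurora kinases and kinetochore proteins, were counted in the same comparisons. At day 0, 19 of 28 were lower in knockout, beside 12.6% of all genes, and none higher, with a median log2 fold change of -1.64. The smallest adjusted p values were those of Nusap1, a microtubule bundler (-2.25, edgeR adjusted p = 0.000328), Ckap2 (-1.64, adjusted p = 0.000665) and Cenpe, itself a kinesin of the kinetochore (-1.35, adjusted p = 0.00137). At day 7, 27 of 28 rose in wild type and 28 of 28 in knockout, beside 25.8% and 24.7% of all genes. The interaction passed for 12 of 28, all with the larger rise in knockout, beside 6.08% of all genes, and 28 of 28 fell from day 7 to day 21, beside 28.4%. Some partners did not pass at day 0: Mki67, a marker of cycling cells, stood at 5.31 and 6.54 CPM in wild type against 4.80 and 6.22 in knockout (-0.11, adjusted p = 0.89), and Prc1, which bundles midzone microtubules and binds Kif4, had -0.03 (adjusted p = 0.944).

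The regulators of these genes were mixed at day 0. Of 12, Mybl2 (B-Myb), Lin37 and E2f4 were lower in knockout and Rbl1 and Rbl2, pocket proteins of the DREAM complex, were higher (41.7% called, beside 27.4% of all genes). Mybl2 had -2.26 (edgeR adjusted p = 0.0027) and a larger rise to day 7 in knockout (2.41, adjusted p = 0.0142). Rbl2 passed the interaction in the other direction (-0.67, adjusted p = 0.0318), so that 2 of 12 passed (16.7%), beside 13.5% of all genes. Foxm1 had -0.38 at day 0 and did not pass (adjusted p = 0.316).

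Partners of the transport motors and the dynein complex were also counted beside all genes. At day 0, 7 of 20 cargo adaptors and light chains were higher in knockout and 1 was lower (40% called, beside 27.4% of all genes), led by Trak2, a mitochondrial adaptor (0.91, edgeR adjusted p = 0.000387), and Mapk8ip3 (1.43, adjusted p = 0.000459). From day 0 to day 7, 2 rose and 5 fell in wild type, and 7 fell in knockout, 35% each beside 47% and 46.9%. The dynein complex, the motor that runs the other way, had 5 genes higher and 5 lower of 21 at day 0, or 47.6%. Its changes to day 7 were 5 up and 6 down in wild type and 5 up and 7 down in knockout, or 52.4% and 57.1%.

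Among the 10 other kinesins tested, none differed between the genotypes in edgeR at day 0 or day 7. Kif19a, a depolymerase that sets the length of cilia, fell from day 0 to day 7, from 5.06 and 3.88 to 0.0718 and 0.336 CPM in wild type and from 4.04 and 5.08 to 0.276 and 0.520 in knockout. The log2 fold changes were -4.44 ± 0.58 (edgeR adjusted p = 0.000169) and -3.53 ± 0.55 (adjusted p = 0.000446), and at day 21 it stood between 1.03 and 2.22 CPM. Kif21a, which restrains microtubule growth, fell in wild type by 1.33 ± 0.24 (adjusted p = 0.00116), with 23.2 and 22.1 CPM at day 0 and 9.93 and 8.12 at day 7. Kif26a fell in knockout by 2.13 ± 0.46 (adjusted p = 0.00328). Kif24, Kif7 and Kif21b passed in wild type with adjusted p values between 0.0447 and 0.0476, and each lost its call without at least 4 single libraries. Kif2a, Kif6, Kif9 and Kif26b did not pass from day 0 to day 7.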

How the data were processed

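The authors deposited estimated counts per gene, not normalised, TPM of the same genes, and regularised log2 values that the authors corrected for a batch named in neither labels nor table. The submitters' processing notes name kallisto 0.46.1 and mm10 (GRCm38.p6) with no roles. Libraries came from the SMART-Seq v4 and Nextera XT kits, per the labels' protocols.

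Estimated counts were rounded, filtered with filterByExpr (15890 genes) and scaled by TMM (factors 0.915 to 1.09). edgeR 4.0.16 (R 4.3.3; glmQLFit, robust, then glmQLFTest) fitted 1 mean per group over the 12 libraries, with 6 residual degrees of freedom; p-values were adjusted by Benjamini-Hochberg over all genes tested. CPM carry no prior count. On counts simulated for day 0, the fit called 187 of 15890 genes, of which 178 were among the 200 given a log2 change of 2 and 9 were false. The 200 were drawn from genes above a low mean count, no other gene or group differed, and the spread followed the trend. Changes near 0 counts or in many genes were thus not covered.

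Alternatives were DESeq2 1.42.0, limma 3.58.1 on log2 TPM (pseudocount 1 or 0.1) or on the corrected log2 values, other size factors, filters and sample choices, a length offset, a fold threshold, a replicate block, and leaving out each library.

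Members, classes and lists were chosen with earlier results of these data known. Named genes were Kif11, Kif20a, Kif23, Kif5b, Kif1b and up to 3 called members per class and direction in each comparison with the smallest adjusted p; every other member is named at least once. Exons and positions are from GENCODE M21, promoters from RefSeq GRCm38.p6. Replicate numbers were not used to pair libraries in the main test, and whether they mark a batch is not known.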

Additional observations from a re-analysis of the deposited data

Results flagged for a closer look

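For 7 kinesins the change from day 0 to day 7 differed between the genotypes by the edgeR interaction test, with 2 libraries per group. On the log2 scale, knockout minus wild type, the differences were 3.34 for Kif22 (adjusted p = 0.0136), 1.44 for Kif23 (adjusted p = 0.0298) and 2.62 for Kif2c (adjusted p = 0.0433). Kif18b had a fitted difference of 7.14 (adjusted p = 0.0345), which depends on the prior count because both knockout libraries of day 0 had no count. The transport motors had -2.47 for Kif5c (adjusted p = 0.0036), -3.51 for Kif13b (adjusted p = 0.0136) and -1.04 for Kif13a (adjusted p = 0.0288). All 7 also passed between the genotypes at day 0, in the same libraries, and none passed at day 7.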

How the results depend on the processing

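Of 93 calls of a kinesin in a comparison, 44 held in every alternative that tested the gene and 49 were lost in at least 1; of the 44, 17 were of genes not tested when at least 10 counts in every library were asked; in 2 of the 49 the direction turned. Kif3a from day 0 to day 7 in wild type turned to 0.10 with limma on log2 TPM plus 1 (filter or none) and to 0.10 with a pseudocount of 0.1. Kif5c from day 0 to day 7 in knockout turned to 0.96 with the gene length offset, 0.75 with limma on TPM plus 1 (filter or none), 0.97 with a pseudocount of 0.1 and 0.64 on the corrected log2 values.

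Numbers of called kinesins changed by more than 1.5 times as follows. With at least 10 counts in every library, which tests fewer genes, mitotic calls were 2 for genotype at day 0, 6 for day 7 in knockout, 2 for the interaction, 1 for day 21 against day 0 and 6 for day 21 against day 7. With the libraries of the comparison alone, or with day 0 and day 7 alone, they were 7 at day 0 and 7 for the interaction. With no filter the mitotic interaction had 2, and with the length offset 1, while transport calls for day 7 in wild type were 5. With limma on TPM plus 1, transport calls were 3 for genotype at day 0, 3 and 3 for day 7 in wild type and knockout and 1 for the interaction, where the mitotic number was 0; without its filter they were 2, 3, 3 and 0, with 2 mitotic at day 0, 0 for the interaction, and 1 mitotic and 3 transport for day 21 against day 0. With a pseudocount of 0.1 they were 3 and 3 for day 7 and 1 for the interaction, as for the mitotic. With a fold threshold transport calls were 3 at day 0, 2 for day 21 against day 0 and 3 for day 21 against day 7. By label at day 21, DESeq2 gave 1 mitotic and limma on corrected values 1 transport. Where the construction does not show it, the cause was not tested.

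Leaving out 1 library at a time, mitotic and transport calls ranged from 2 to 7 and 3 to 5 for genotype at day 0, 0 to 0 and 0 to 0 at day 7, 0 to 4 and 0 to 0 at day 21, 7 to 10 and 4 to 9 for day 7 in wild type, 9 to 12 and 4 to 9 in knockout, 1 to 5 and 1 to 4 for the interaction, 2 to 4 and 3 to 8 for day 21 against day 0, and 11 to 12 and 6 to 8 for day 21 against day 7. An arm left with 1 library is assumed to vary like the others.

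In summed CPM the log2 folds were 2.56 and 3.54 for mitotic motors from day 0 to day 7 in wild type and knockout (2.75 and 3.72 in TPM). For transport motors they were -0.16 and -0.56 (0.01 and -0.33 in TPM), 0.40 for knockout over wild type at day 0 (0.28) and 0.0056 at day 7, which turned its sign (-0.07). Without the most abundant member they were 2.58, 3.35 and -0.68 for the mitotic motors to day 7 and at day 0, and -0.13, -0.55 and 0.41 for the transport motors. Leaving out a library, the transport sums ranged from -0.04 to 0.06, from -0.39 to -0.28, from 0.23 to 0.33 and, at day 7, from -0.13 to -0.0095; the mitotic sums ranged from 2.72 to 2.79, 3.68 to 3.75 and -0.93 to -0.86.

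Replicate numbers are shared by the groups. Replicate differences correlated between groups at -0.143 to 0.07 across genes, so no common pairing by number was seen. A batch that was weak or numbered otherwise would not show in these values, and whether libraries were paired is not known. With the replicate block, calls for day 7 in wild type were 8 mitotic and 6 transport, those for genotype at day 0 were 4 and 5 and those for the interaction 3 and 3. Crossing the numbers of knockout at day 7 gave 0 mitotic, 0 transport and 1 other kinesin between the genotypes there, an alternative chosen after seeing the data. Between the genotypes at day 0, Kif17, Kif20b and Kifc2 had few counts and adjusted p values of 0.0669, 0.186 and 0.851, while Kif13b and Kif18b, also low, passed.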
